A study of Mus musculus with 106 samples.

Results

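H3K4me3 peak lists of unstimulated bone marrow-derived macrophages (BMDM) were compared between 5 libraries from diabetic mice and 6 libraries from control mice. The 11 lists were taken by the titles of the samples, 5 diabetic (replicates 1, 2, 4, 5 and 6) and 6 control (replicates 1 to 6), out of 70 peak lists and 106 samples in the series; a list of diabetic replicate 3 was not analysed here. The animals were C57BL/6J mice of 12 to 14 weeks. Diabetes was induced with streptozotocin (STZ), a toxin of pancreatic beta cells, at 42 to 45 mg/kg/day for 5 days, and marrow was taken 6 weeks later from mice with blood glucose above 13.9 mmol/L. Marrow cells of both groups were differentiated for 7 days at a glucose of 5 mmol/L with 20% L929-conditioned medium, a source of the growth factor M-CSF. They were then held in medium without stimulus, for 16 h in the study's general protocol. Its section on chromatin immunoprecipitation gives no time. The glucose in the dish was thus the same for both groups, while the donors differed in streptozotocin exposure and in what followed from it. Chromatin immunoprecipitation used an antibody to trimethylated lysine 4 of histone H3, and reads were single reads of 50 bp. The labels do not tie libraries to animals, the study's methods count individual animals as n, and all p-values measure the spread between these libraries.

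H3K4me3 is deposited at transcription start sites by the COMPASS-type methyltransferases (Setd1a and Setd1b and the Kmt2 family) and is removed by the Kdm5 demethylases. The reader protein Cxxc1 recruits the enzyme to unmethylated CpG dinucleotides, so CpG-rich promoters tend to carry the mark in most cell types, including promoters of genes that are silent there, while promoters with few CpG tend to gain it with transcription. Wide domains of the mark often lie over genes that define a cell type, and in trained immunity, a lasting change of innate immune cells after an earlier stimulus, gain of H3K4me3 at promoters of inflammatory and metabolic genes has been described.

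A list holds intervals and their strength, not reads. Each list was therefore cut to its 20000 strongest intervals by the deposited -log10 p, and a protein-coding gene was called marked when one of these intervals touched the window from 1000 bp before to 1000 bp after any of its start sites. The rank of a gene is the rank of its best such interval, from 1 for the strongest interval of the library. A gene that none of the 20000 touched was placed just behind the last of them. Where a gene is said to have no mark or no interval in a library, these 20000 are meant, unless the whole list is named. The width of a marked promoter is the summed length of the intervals that touch the windows of any start site of the gene. It need not be 1 continuous stretch.

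Marked promoters held more CpG than unmarked ones, in both groups. Of 21938 genes, 8668 were marked in all 11 libraries and 7261 in none. The median number of CpG in 300 bp around the start site (250 bp before and 50 bp after, the richest start site of the gene) was 29 in genes marked in all 11 libraries, 23 in genes marked in 6 to 10, 13 in genes marked in 1 to 5 and 3 in genes marked in none. The 250 bases before the start site of 6 genes are shown, with each CpG in capitals, as examples of promoters on both sides. Mertk (a receptor for apoptotic cells) and Neurog2 (a factor of neuron formation) were marked in all 11 libraries, Lyz2 (macrophage lysozyme), Itgam (the CD11b integrin chain) and Il6 (the cytokine interleukin-6) in none, and Nqo2 (a quinone reductase) in 5 control libraries and no diabetic library.
Mertk (chr2:128698665-128698914, plus strand): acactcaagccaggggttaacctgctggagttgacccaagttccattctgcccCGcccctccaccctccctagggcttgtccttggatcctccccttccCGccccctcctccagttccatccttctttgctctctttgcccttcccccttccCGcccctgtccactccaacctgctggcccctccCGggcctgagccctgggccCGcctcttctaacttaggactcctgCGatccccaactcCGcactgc
Neurog2 (chr3:127632886-127633135, plus strand): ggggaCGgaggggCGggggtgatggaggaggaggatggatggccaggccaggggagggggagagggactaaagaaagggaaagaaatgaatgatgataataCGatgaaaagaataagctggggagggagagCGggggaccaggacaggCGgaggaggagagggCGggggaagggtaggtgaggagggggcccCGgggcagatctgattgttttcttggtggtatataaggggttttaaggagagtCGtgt
Lyz2 (chr10:117282273-117282522, minus strand): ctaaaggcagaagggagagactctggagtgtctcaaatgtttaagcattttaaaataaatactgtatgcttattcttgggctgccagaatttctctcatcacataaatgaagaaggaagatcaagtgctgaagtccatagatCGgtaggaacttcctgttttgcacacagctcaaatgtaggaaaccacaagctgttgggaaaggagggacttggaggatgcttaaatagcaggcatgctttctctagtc
Itgam (chr7:128062390-128062639, plus strand): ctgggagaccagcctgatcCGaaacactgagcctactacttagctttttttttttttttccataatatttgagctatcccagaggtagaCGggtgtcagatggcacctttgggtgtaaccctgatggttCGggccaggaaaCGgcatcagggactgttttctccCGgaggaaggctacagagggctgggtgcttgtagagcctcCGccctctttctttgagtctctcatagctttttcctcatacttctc
Il6 (chr5:30012864-30013113, plus strand): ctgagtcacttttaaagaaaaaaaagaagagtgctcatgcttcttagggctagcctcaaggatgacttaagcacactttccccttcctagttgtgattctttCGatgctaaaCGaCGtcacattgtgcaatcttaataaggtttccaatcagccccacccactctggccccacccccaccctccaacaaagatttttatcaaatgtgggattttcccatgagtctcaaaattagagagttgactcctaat
Nqo2 (chr13:33964409-33964658, plus strand): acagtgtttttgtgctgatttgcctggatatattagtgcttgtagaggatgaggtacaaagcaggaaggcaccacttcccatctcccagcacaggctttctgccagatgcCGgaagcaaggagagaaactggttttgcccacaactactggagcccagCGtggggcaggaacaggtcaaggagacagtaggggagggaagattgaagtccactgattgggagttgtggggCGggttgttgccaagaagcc
These are reference sequences from RefSeq (GRCm38.p6), written 5′ to 3′ along the gene. They hold 7 CpG (Mertk), 8 (Neurog2), 1 (Lyz2), 6 (Itgam), 3 (Il6) and 3 (Nqo2), against a share of 37.8% of all 32851 RefSeq promoter windows of that length with 10 or more. The windows of Neurog2 and Lyz2 overlap 1 annotated exon each and the others none. The count before the start site alone did not separate Mertk from Itgam. Counted over 300 bp and over all annotated start sites, Mertk had 20 CpG and Neurog2 10, while Itgam had 6, Il6 5 and Lyz2 1.

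**Figure D1:**
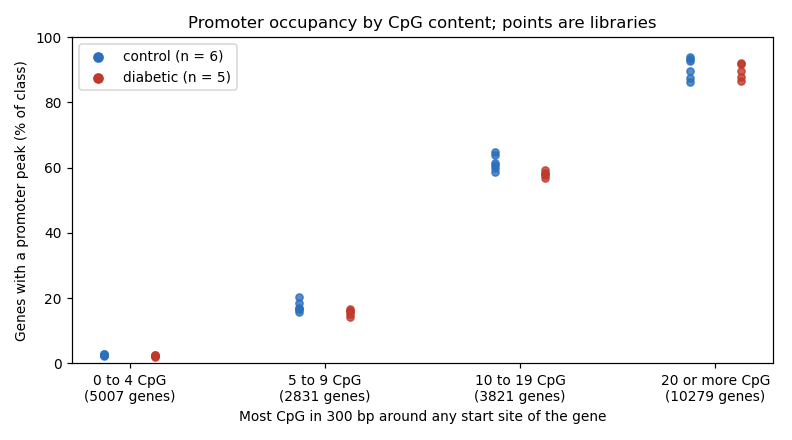
Share of genes with a promoter peak (y axis, % of the genes in a class) against the number of CpG around the start site (x axis, 4 classes), for 6 control (blue) and 5 diabetic (red) libraries, each point 1 library. Occupancy rose with CpG content in every library, from 1.96% to 2.88% of genes with 0 to 4 CpG to 86.3% to 94.0% of genes with 20 or more.

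Among genes with 5 to 9 CpG the marked share was 14.1% to 16.6% in the diabetic and 15.9% to 20.2% in the control libraries, and with 10 to 19 CpG it was 56.7% to 59.4% and 58.6% to 64.7%. The groups overlapped in all 4 classes. X-linked genes stood below this pattern in all 11 libraries. Of 255 X-linked genes with 20 or more CpG, 43.9% to 58.0% were marked in the diabetic and 38.0% to 62.8% in the control libraries, against 87.5% to 94.8% of 10023 autosomal genes of the same class over the 11 libraries. Several housekeeping genes that were marked in no cut list are X-linked. Among them were Pgk1 (phosphoglycerate kinase of glycolysis), G6pdx (the entry enzyme of the pentose phosphate pathway) and the ribosomal protein genes Rpl10 and Rps4x. The chromosome was examined after these genes were seen, and whether the number of X copies per cell bears on it was not tested.

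The whole lists held 66146 to 137710 intervals in the diabetic and 81003 to 212718 in the control libraries. The reads behind them are unknown, but a background rate assumed by the peak caller can be solved from the deposited p and fold columns. The most frequent value among weak intervals was taken, which rises with depth and with unspecific reads. It was 9.43 to 16.5 fragments per kb in the diabetic libraries and 13.4 to 33.1 in the control libraries, above 30 in control replicates 3, 5 and 6. Control replicate 6 also differed in scaling, with whole fragment counts in 2.77% of its intervals against 100% in the other 10 libraries. Only 3.85% of its intervals held the most frequent value, against 17.9% to 38.3% in the others. Its rate is therefore less certain, though it enters the comparisons below like the rest. Ranks over 12357 genes marked in at least 6 libraries correlated weakly between libraries (Spearman's rho across genes 0.24 to 0.71 over 55 pairs of libraries, mean 0.45 within and 0.46 between groups), with control replicate 1 lowest (mean 0.32 with either group). No 2 libraries shared more than 0.01% of their intervals with identical ends, so none is a repeat of another.

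Macrophage genes were a poor guide to the label. Of 12 markers of macrophages, 2 to 3 were marked in each diabetic and 2 to 6 in each control library, always including Mertk. Adgre1 (the F4/80 antigen), Lyz2, Fcgr1, Itgam, Msr1 and Mpeg1 were marked in none, and even in the whole lists Adgre1 was marked in 1 of 5 diabetic and 2 of 6 control libraries and Itgam and Msr1 in no library. Other markers were marked more often there: Cd68 and Cd14 in 5 of 5 diabetic and 6 of 6 control whole lists, and Ctss in 2 of 5 and 6 of 6. Csf1r, the receptor of the growth factor in the medium, was marked in 1 control library of the 11 cut lists, but in 3 of 5 diabetic and 6 of 6 control whole lists. The whole lists are not of equal length, with 66146 to 137710 intervals in the diabetic and 81003 to 212718 in the control libraries. Their counts therefore do not compare the groups. Of 10 genes of stem and progenitor cells, 8 to 9 were marked in every library, with Kit, Gata2, Meis1, Mecom, Hlf, Myb and Hoxa9 in all 11. Pax5 (a B-cell factor), Prtn3 (a granule protease), Klf1 (an erythroid factor), Pdgfra and Twist1 (of fibroblasts) and Kdr (of endothelium) were also marked in all 11, Pax5 with 27 and Kit with 22 CpG around the start site. Neutrophil markers stood at 1 to 2 of 11 and mast cell and basophil markers at 0 of 6 in every library of both groups. T-cell markers ranged from 0 to 4 of 9 in both groups. Among the 20000 strongest intervals, few of the defining macrophage genes were thus marked, and more were in the whole lists.

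The promoter intervals of lowest median rank were marked in both groups, though not all stood near the top in every library. By the median rank over the 11 libraries the first were Trpm8 and Hjurp (1 interval between the start sites of both, median rank 6, rank 4 to 18 in the diabetic and 1 to 6494 in the control libraries), Sfi1 (median 14), Fcgr3 (a low-affinity Fc receptor of macrophages, median 44), H2-Q7 and H2-Q6 (class I histocompatibility genes, 67 and 203), Cdk6 (a cell cycle kinase, 220), Spata6 (234), Bloc1s6 (283) and Eif3m (287). Fcgr3, H2-Q6 and H2-Q7 have close relatives in the genome, so their reads may be split among copies. Sfi1 lay at ranks 1 to 15 in the diabetic libraries and at 4 to 25 in control replicates 1, 2 and 4, but at 8171 and 9815 in control replicates 3 and 5 and had no interval in control replicate 6. The widest promoters marked in all 11 libraries, by median width, were those of Gse1, Ahnak2, Plec, Ptprs, Gnas, Nol4l, Gm21887, Zbtb7b, Tfap2a and Spen. These widths are sums over all start sites of a gene and do not show a single broad domain. At Gse1 they were 7880, 11156, 8859, 8733 and 10120 bp in the diabetic libraries and 7301 to 12956 bp in the control libraries. At Spen (a transcriptional repressor) they were 6528, 3382, 2749, 4134 and 3341 bp in the diabetic libraries and 3992 to 9587 bp in the control libraries.

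**Figure D2:**
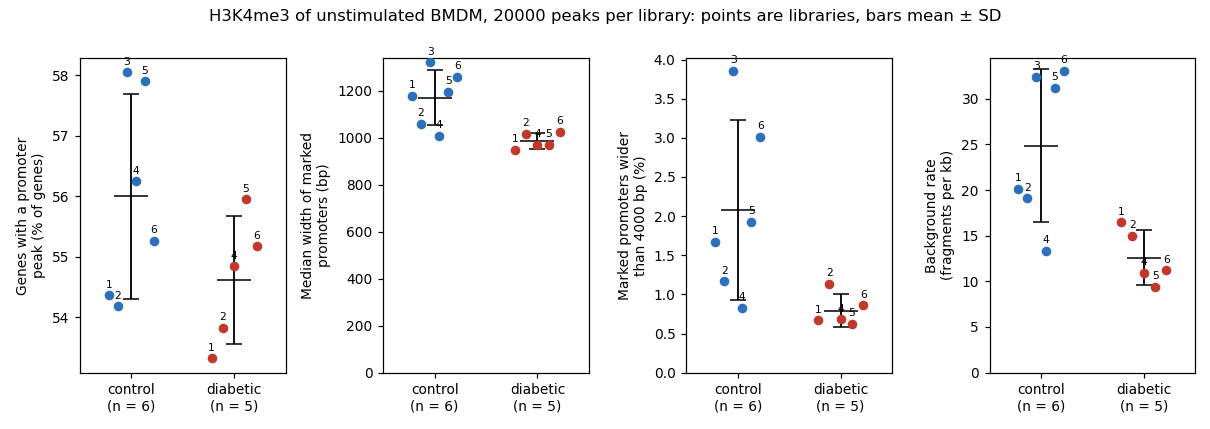
Share of genes marked, median width of marked promoters, share of marked promoters wider than 4000 bp and background rate (y axes) of 6 control (blue) and 5 diabetic (red) libraries; points are libraries with their replicate numbers, bars the mean ± SD. Widths and background rates were lower in the diabetic group, and control replicates 3, 5 and 6 were high in both; the first axis does not start at 0.

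Marked promoters were narrower in the diabetic than in the control libraries, while no difference in their number passed the test. The share of genes marked was 53.3%, 53.8%, 54.8%, 56.0% and 55.2% in diabetic replicates 1, 2, 4, 5 and 6 and 54.2% at the lowest, 55.8% at the median and 58.1% at the highest in the 6 control libraries. The groups overlapped (54.6% ± 1.06, SD, n = 5, against 56.0% ± 1.70, n = 6; exact two-sided permutation test, p = 0.158, adjusted over 5 library-level measures 0.198). Of the 20000 intervals, 64.4% ± 0.675 (n = 5) and 65.0% ± 1.72 (n = 6) touched a promoter window (exact permutation p = 0.511, adjusted 0.511).

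The median width of marked promoters was 947, 1017, 970, 969 and 1026 bp in the diabetic libraries and 1008, 1186 and 1320 bp (lowest, median, highest) in the control libraries. All 5 diabetic values lay below the control mean and 3 lay below every control value, and the ratio of the geometric means was 0.846 (exact permutation p = 0.0152, adjusted 0.0379, where 0.00216 is the smallest p that 462 arrangements allow). Promoters wider than 4000 bp made up 0.794% ± 0.210 of those marked in the diabetic group (n = 5) and 2.08% ± 1.15 in the control group (n = 6; exact permutation p = 0.0238, adjusted 0.0397). The background rate moved with the groups in the same direction, 12.6 ± 2.97 fragments per kb (n = 5) against 24.9 ± 8.39 (n = 6; exact permutation p = 0.0152, adjusted 0.0379). Without control replicates 3, 5 and 6, whose rates are above 30, the log2 difference in median width went from -0.24 to -0.13 and missed the threshold (exact permutation p = 0.0714, adjusted 0.179, n = 5 and 3). The adjusted p of the median width of marked promoters also rose to 0.0595 to 0.0833 when any 1 diabetic library was left out. Width and background rate cannot be told apart in these groups.

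By occupancy, no gene was marked in every library of 1 group and absent from the other group. Of 1457 genes whose number of marked libraries lets Fisher's exact test reach p = 0.05, 0 were called after Benjamini-Hochberg adjustment and 21 had an unadjusted p under 0.05 (1.44% of those tested), 5 with more diabetic and 16 with more control libraries. The smallest p that 5 against 6 libraries allow is 0.00216, so a gene that separated the groups alone could not have passed the adjustment over 1457 tests. The nearest to a full separation, named after their values were seen, were Usp18, Glb1l2 and Nkain4, marked in all 5 diabetic and 1 control library. In the other direction 12 genes were marked in all 6 control and 1 diabetic library, among them Abca7 (a lipid transporter), Cd300a (an inhibitory receptor of myeloid cells), Zbtb33 (the methyl-CpG binding protein Kaiso), Taf6 and Cnpy4 (neighbours that share 1 interval), and 4 (Nqo2, Rrm2b, Cox6b2 and Olfr56) were marked in 5 control libraries and in no diabetic one. Control replicate 4, with the lowest background rate of the controls, is the control library without a mark in all 4. Each of these 19 genes had Fisher's exact p = 0.0152, and Nqo2 was marked in all 11 whole lists, so its interval was there but weaker than the 20000 kept.

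Usp18, an interferon-induced protease that removes ISG15 and restrains interferon signalling (chr6:121245906-121270917), had the lowest p of the rank comparison. Its best interval stood at ranks 2587, 6357, 6323, 11131 and 13088 in diabetic replicates 1, 2, 4, 5 and 6 and at rank 13262 in control replicate 3, with no interval among the 20000 in the other 5 control libraries. Every diabetic library was above every control library, at the closest by 13088 against 13262. With marks in 5 diabetic and 1 control library, the gene only just met the requirement of 6 marked libraries. Its other 5 control values are ties placed behind the list, so its SE and p rest partly on these ties and on that requirement. The marked intervals were 580, 587, 599, 587 and 708 bp wide in the diabetic libraries and 566 bp in control replicate 3, all over the first start site, and all 11 whole lists held an interval there. The log2 rank differed by -1.45 ± 0.38 (SE; diabetic minus control, negative when nearer the top of the list in diabetes; limma), the lowest unadjusted p of all, and this did not survive Benjamini-Hochberg adjustment over 12357 genes (adjusted p = 0.987).

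Over those 12357 genes, limma called 0 by rank (0% of genes tested), with 438 at an unadjusted p under 0.05 (3.54%), 207 nearer the top in diabetic (1.68%) and 231 nearer the top in control libraries (1.87%). The median difference over all genes tested was 0.04 log2 rank. Ranks of the groups did not overlap in 15 genes that were nearer the top in every diabetic library (0.121%) and in 23 that were nearer the top in every control library (0.186%). The requirement of 6 marked libraries could be met by the 6 control libraries alone but not by the 5 diabetic libraries alone. No gene was marked in every library of 1 group and in none of the other, and the counts by direction were not tested against each other. With the spread of these libraries a simulated shift of 1 log2 unit was recovered in 3% of 100 genes and one of 3 units in 39%, so most changes of that size were not detectable here.

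The other 9 genes of lowest p towards diabetes were Rgs12 and 8 predicted genes. Rgs12, a regulator of G-protein signalling, stood at ranks 349, 1109, 5673, 316 and 1246 in the diabetic and at 5553 to 16694 (median 7548) in the control libraries (log2 difference -3.06 ± 0.81, limma adjusted p = 0.987). The groups overlapped by 1 library, diabetic replicate 4. Gm10715, Gm10717, Gm10718, Gm10719, Gm10720, Gm10721 and Gm17535 lie side by side at the start of chromosome 9 and shared 1 set of intervals, and Gm21738 on chromosome 14 followed them. The shared interval of the chromosome 9 genes stood at ranks 3832, 8, 95, 934 and 30 in the diabetic libraries, at 338, 6755 and 1622 in control replicates 1, 2 and 4, and was missing in control replicates 3, 5 and 6 (log2 difference -5.19 ± 1.46, limma adjusted p = 0.987). These are near-identical copies over which reads cannot be placed with certainty, and their intervals summed to 26935 to 38599 bp where present.

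Among the 10 genes of lowest p in the other direction were Ddx60, 1700037C18Rik, Cluap1, Lrrc2, Ezh1, Kif20b, Rps13, Snx1 and Ednrb. Ddx60, an interferon-induced helicase of antiviral sensing, stood at 12863, 9049 and 18757 in diabetic replicates 1, 2 and 4, had no interval in diabetic replicates 5 and 6, and stood at 1625 to 15975 (median 3779) in the control libraries (log2 difference 1.83 ± 0.53, limma adjusted p = 0.987). Here control replicate 4 lay among the diabetic values.
The 250 bases before the start site of Ddx60 are shown because, like Usp18, it is an interferon-induced gene, yet its difference had the opposite sign. Capitals mark the interferon-stimulated response element in the form GAAANNGAAA or its complement TTTCNNTTTC.
Ddx60 (chr8:61927837-61928086, plus strand): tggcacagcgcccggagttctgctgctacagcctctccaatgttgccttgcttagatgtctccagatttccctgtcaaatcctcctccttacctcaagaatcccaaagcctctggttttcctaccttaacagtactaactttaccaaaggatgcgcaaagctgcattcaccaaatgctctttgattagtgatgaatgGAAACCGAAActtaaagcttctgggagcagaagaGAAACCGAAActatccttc
The window overlaps 2 annotated exons and holds 2 matches in the reference sequence of RefSeq (GRCm38.p6), and 2.98% of all 32851 promoter windows hold at least 1. No sequence is shown for Usp18.

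Ezh1, a methyltransferase of lysine 27 of histone H3, stood at ranks 9554, 2732, 3186, 3858 and 4990 in the diabetic and at 14 to 1441 (median 518) in the control libraries, which did not overlap (log2 difference 4.004 ± 1.26, limma adjusted p = 0.987). The groups were also apart at the interval shared by Cluap1 (a protein of cilia) and 1700037C18Rik (1.93 ± 0.59), at Kif20b (a mitotic kinesin, 1.49 ± 0.48) and at Ednrb (the endothelin B receptor, 0.92 ± 0.30), which was marked in 2 of 5 diabetic and 6 of 6 control libraries. They overlapped at Rps13 (a ribosomal protein gene), which stood at ranks 16126, 6080, 7586, 3864 and 6005 in the diabetic and at 178 to 5278 (median 866.5) in the control libraries (2.95 ± 0.95, limma adjusted p = 0.987), at Lrrc2 (1.06 ± 0.33) and at Snx1 (a sorting nexin of endosomes, 1.797 ± 0.58).

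**Figure D3:**
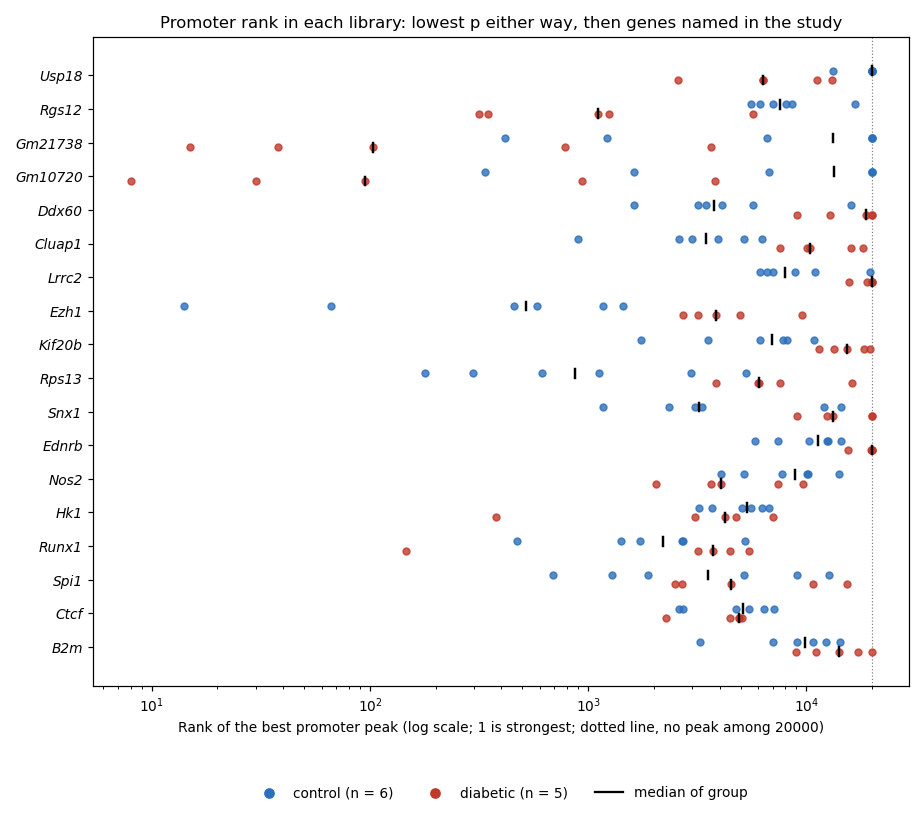
Rank of the best promoter interval (x axis, log scale, 1 strongest, line at the right for no interval) of genes with the lowest p in each direction (1 of each set that shares an interval) and of genes named in the study, in 6 control (blue) and 5 diabetic (red) libraries, with the median of each group as a black bar. Usp18 and Ezh1 show no overlap between groups, while Nos2, Hk1, Runx1, Spi1, Ctcf and B2m overlap.

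Promoters were narrower in the diabetic libraries across the genome, and no single gene stood out from this shift by the test. After each library was centred on its own median, limma called 0 of 11986 genes (0%), with 1104 at an unadjusted p under 0.05 (9.21%), 617 wider (5.15%) and 487 narrower (4.06%) in the diabetic libraries relative to the rest of their library. Leaving out diabetic replicate 1 or control replicate 4 brought the count to 10 and 14, all narrower in diabetes. Without centring, 2477 genes (20.7%) had an unadjusted p under 0.05, the median log2 difference was -0.21, and 7 genes (0.0584%) passed the adjusted threshold, all narrower in diabetes. Widths in bp did not overlap between groups in 569 genes that were narrower (4.75%) and in 0 that were wider (0%). With the background rate as a covariate, 0 were called in either scaling.

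Izumo4, Gltp and Alox12 had the lowest p among the centred widths (adjusted p = 0.112 each, limma). At Izumo4 (a sperm protein gene) the diabetic libraries held 1 interval of 414, 416, 351, 378 and 308 bp upstream of the first start site and nothing behind it. Of the 5 control libraries that marked it, all had a second interval within the gene, and widths summed to 830 to 2502 bp (log2 difference of centred widths -1.62 ± 0.21). The upstream interval is shared with a neighbouring gene. Gltp, a glycolipid transfer protein, was not marked in diabetic replicate 1, spanned 591, 455, 349 and 479 bp in the others and 1025 to 2246 bp in the control libraries (-1.55 ± 0.21). Alox12, a lipoxygenase of arachidonic acid, spanned 301, 563 and 477 bp in the 3 diabetic libraries that marked it and 1196 to 2117 bp in 5 control libraries (-1.76 ± 0.22). In all 3 the groups did not overlap.

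Pign, an enzyme of glycosylphosphatidylinositol anchors, spanned 872, 947, 967, 986 and 991 bp in the diabetic and 1393 to 1851 bp in the control libraries and had the lowest adjusted p without centring (0.0178, limma, log2 difference -0.82, and -0.57 ± 0.09 with adjusted p = 0.182 when centred). In every diabetic library its interval ended before the first start site, at positions -225 to -77 bp. In control replicates 2, 3, 5 and 6 it ran across the start site to 465 to 543 bp into the gene, and in control replicate 1 a separate interval covered the gene side. In control replicate 4 no interval did. Its width of 1705 bp sums 1111 bp before the first start site and an interval of 594 bp at a distant start site, 95211 to 95804 bp into the gene. At the first start site alone this library was thus closer to the diabetic widths. The other 6 genes called without centring were Rabl2, Dhrs4 (a short-chain dehydrogenase), Gmpr (GMP reductase), Chaf1a (the large subunit of chromatin assembly factor 1), Izumo4 and Rfx8. At Chaf1a the widths were 482, 397, 342, 399 and 466 bp in the diabetic libraries and 677 to 793 bp in the 5 control libraries with a mark. The 5 genes with the lowest p towards wider promoters in diabetes were Tnfrsf10b (a death receptor), Gfm1, Brdt, Ccng2 and Gm6710. Tnfrsf10b spanned 1177, 1252, 1235 and 1271 bp in 4 diabetic and 930 to 1202 bp in the control libraries (centred difference 0.41 ± 0.07, limma adjusted p = 0.253), which overlapped.

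**Figure D4:**
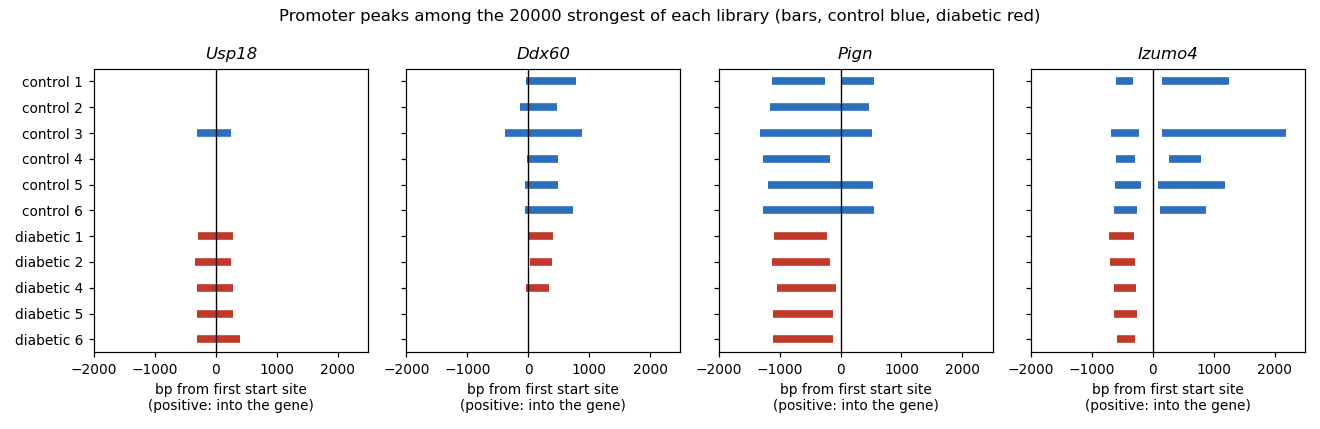
Promoter intervals among the 20000 strongest of each library at Usp18, Ddx60, Pign and Izumo4 (x axis, bp from the first annotated start site, positive into the gene; 1 row per library, control blue, diabetic red). The Usp18 interval is in 5 diabetic and 1 control library, and the gene-side part of Pign and Izumo4 is in 5 control libraries each and in no diabetic library.

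Of 10 genes named in the study, among them B2m, the quantitative PCR reference gene, 4 had no promoter interval in any of the 11 cut lists. These were Il6, Il1b (interleukin-1 beta), Chil3 and Retnla (the alternative activation markers Ym1 and Fizz1). Whether weaker intervals of the whole lists touch these promoters is not given here. The study describes H3K4me3 peaks at the promoters of Il6 and Hk1, from read tracks of representative samples. The cut lists do not test that description for Il6. Nos2, Hk1, Runx1, Spi1 and Ctcf were marked in all 11 libraries and B2m (the light chain of class I molecules) in 4 diabetic and 6 control libraries. For 4 of them the mark lay away from the first start site. The first start site of Nos2 (inducible nitric oxide synthase) and of Hk1 (hexokinase 1, the entry enzyme of glycolysis) was marked in no cut list, and the marked start sites were 3953 bp and 39366 bp downstream. Runx1 was marked 130024 bp downstream of its first start site in the median library and Spi1 (the macrophage factor PU.1) 13706 bp downstream, with the first site itself marked in 1 and 2 libraries. In the whole lists the first start site was marked in 11 libraries for Spi1, 5 for Runx1, 4 for Hk1 and 1 for Nos2.

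Nos2 stood at ranks 2038, 9622, 7430, 3654 and 4054 in the diabetic and at 4047 to 14047 (median 8900) in the control libraries (log2 difference -0.76 ± 0.56, limma adjusted p = 0.987). Hk1 stood at 3099, 4230, 378, 7018 and 4738 in the diabetic and at 3208 to 6760 (median 5328) in the control libraries (-0.83 ± 0.75, limma adjusted p = 0.987). Runx1 (0.17 ± 1.02), Spi1 (0.80 ± 0.79), Ctcf (-0.12 ± 0.63) and B2m (0.68 ± 0.41) overlapped between groups as well, and none of the 6 had an unadjusted p under 0.05.

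No member of any of the 28 gene lists was called by rank or by width. Effector genes of inflammation mostly carried no mark, and so could not be compared. Of 22 inflammatory cytokines and enzymes, 12 were marked in none of the 11 libraries, Tnf, Il12b, Il10 and Acod1 among them, and 6 could be tested. Of 21 chemokines 13 were marked in none, including Ccl2, Cxcl9 and Cxcl10, and 4 could be tested. Of 17 inflammasome genes 14 were marked in none, including Nlrp3, Casp1 and Il18, and of 19 complement and Fc receptor genes 13. Among those tested with the lowest p, Ptges (prostaglandin E synthase) was nearer the top in control libraries (log2 difference 0.47 ± 0.32), Cxcl16 nearer the top in diabetic libraries (-0.68 ± 0.61) and Cx3cl1 at 0.08 ± 0.38, Pycard (the inflammasome adaptor ASC) at -0.54 ± 0.45 and Nek7 at 0.95 ± 0.83, C1qa at -0.08 ± 0.29 and C1qc at 0.79 ± 0.68, each with an unadjusted limma p above 0.05.

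Coverage of signalling and interferon genes varied by list. The mean share marked in diabetic and control libraries was 90.5% and 88.6% for NF-kB genes and 55.7% and 60.1% for Toll-like receptor genes. For interferon-stimulated genes it was 33.3% and 39.4%, and for LPS and interferon-gamma induced genes 32.4% and 34.5%. Over all genes it was 54.6% and 56.0%. Of 33 interferon-stimulated genes 12 could be tested, 7 lower and 5 higher in log2 rank in diabetes (median -0.12), with Usp18 and Gbp7 at an unadjusted p under 0.05 in opposite directions. Gbp7, a guanylate-binding protein, stood at ranks 7835, 13472 and 6405 in diabetic replicates 1, 2 and 4, had no interval in replicates 5 and 6, and stood at 447 to 17087 (median 5898) in the control libraries (1.46 ± 0.68, unadjusted limma p under 0.05). Of 17 tested Toll-like receptor pathway genes 12 were negative and 5 positive (median -0.02), with Irak3, an inhibitor of the pathway, at -1.70 ± 0.86 and Irak1 at 0.44 ± 0.28. Of 17 NF-kB genes 7 were negative and 10 positive (median 0.30), with Tbk1 at -0.74 ± 0.42 and Nfkbia, the gene of the inhibitor I-kappa-B alpha, at 1.12 ± 0.64. Among 9 tested LPS and interferon-gamma induced genes the median was 0.18, and Ptgs2 (cyclooxygenase 2) was at 0.60 ± 0.54.

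Fos, a subunit of the factor AP-1, had the lowest p of its family. It stood at ranks 7897, 12555 and 11929 in diabetic replicates 1, 2 and 4, had no interval in replicates 5 and 6, and stood at 1649 to 8893 (median 5592) in the control libraries (1.55 ± 0.52, limma adjusted p = 0.987). Its marked promoter was 1135 bp wide in the median diabetic and 2902 bp in the median control library. Of 13 AP-1 genes tested 3 were negative and 10 positive (median 0.26), Mafk being lowest at -0.68 ± 0.64. Of 14 Irf and Stat genes 7 were negative and 7 positive (median 0.02), with Stat3 at -0.98 ± 0.70 and Stat6, the mediator of interleukin-4 signals, marked in 1 diabetic and 5 control libraries (0.85 ± 0.38, unadjusted limma p under 0.05). Of 15 Klf genes 6 were negative and 9 positive (median 0.17), with Klf8 at 0.81 ± 0.36 (unadjusted limma p under 0.05) and Klf13 at -1.10 ± 0.85. Among 9 Runx, PU.1 and CTCF factors the median was 0.01, with Cbfb, the partner of Runx proteins, at -0.77 ± 0.77.

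Macrophage identity genes split evenly, 7 negative and 5 positive of 12 tested (median -0.05). Cebpa, a myeloid transcription factor, stood at ranks 1040, 1608, 3418, 351 and 2899 in the diabetic and at 1965 to 10245 (median 5688) in the control libraries (-1.87 ± 0.81, limma adjusted p = 0.987), with control replicate 4 among the diabetic values. Maf, a macrophage transcription factor, went the other way (1.25 ± 0.64). Of 15 tested genes of antigen presentation 5 were negative and 10 positive (median 0.13). H2-Ab1, a class II beta chain, was marked in 2 of 5 diabetic and 4 of 6 control libraries (1.88 ± 0.89, unadjusted limma p under 0.05), while H2-Eb1, the beta chain of the other class II molecule, was at -0.70 ± 0.65. Alternative activation genes had a median of 0.24 over 8 tested, with Socs2 at -1.24 ± 0.96.

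Metabolic genes were better covered than the effectors. Of 27 glycolysis genes 20 could be tested, 7 being negative and 13 positive (median 0.18), with Gpi1 (glucose-6-phosphate isomerase) at -2.04 ± 1.13 and Ldha (lactate dehydrogenase A) at 1.57 ± 0.89, neither with an unadjusted limma p under 0.05. All 22 genes of the tricarboxylic acid cycle were tested, 11 negative and 11 positive (median -0.05). Suclg1, a subunit of succinyl-CoA ligase, stood at ranks 1469, 12793, 58, 264 and 357 in the diabetic and at 1907 to 10382 (median 3730) in the control libraries (-2.62 ± 1.14, limma adjusted p = 0.987), with diabetic replicate 2 below all controls. Sdhd, a subunit of succinate dehydrogenase, was at 1.48 ± 0.76. Of 26 genes of cholesterol and fatty acid synthesis 12 were negative and 14 positive (median 0.03). Mvk (mevalonate kinase) was at 0.90 ± 0.48.

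Insulin and IGF signalling genes had the lowest list median, -0.47 over 25 tested against 0.04 over all genes, with 19 negative and 6 positive, but none had an unadjusted p under 0.05, against 3.54% of all genes. Igf1, marked in 5 diabetic and 4 control libraries, was at -0.91 ± 0.49, Igf1r, its receptor, at -0.76 ± 0.86 and Insr, the insulin receptor, at 0.45 ± 0.73. The writers and erasers of H3K4 methylation stood on the other side, with 16 of 21 tested genes positive and a median of 0.36, and again none had an unadjusted p under 0.05. The demethylase gene Kdm1a was at 0.92 ± 0.63, Setd1a at 0.36 ± 0.74, Dpy30, a core COMPASS subunit, at -0.46 ± 0.70 and Prdm9, a methyltransferase of meiosis, at 0.64 ± 0.32. The remaining lists had medians between -0.40 and 0.29: pentose phosphate genes (-0.40, Pgls -1.40 ± 0.74, Taldo1 1.96 ± 1.01), foam cell genes (-0.09, Nr1h2 -1.64 ± 1.04, Fabp4 0.26 ± 0.31), glucose transporters (0.09, Slc2a1 -0.78 ± 0.75, Slc2a12 0.72 ± 0.52), hypoxia genes (0.19, P4ha2 -1.29 ± 0.63, Arnt 1.21 ± 0.68), oxidative stress genes (0.05, Cyba -0.98 ± 0.79, Gclc 0.67 ± 0.74), ribosomal protein genes (0.29, Rpl23 -0.93 ± 0.80, Rpl4 1.26 ± 0.66) and proteasome genes (0.21, Psma4 -1.23 ± 0.74, Psma5 1.21 ± 0.71).

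Other libraries of the series, which had no part in choosing these genes, were set beside them. In H3K4me3 lists of BMDM stimulated with LPS and interferon-gamma (6 diabetic, 6 control) limma called 0 of 12626 genes (572 at an unadjusted p under 0.05, 4.53%), in haematopoietic stem cells (HSC, 6 and 6, 1 diabetic list being shorter than 20000 intervals) 0 of 12555 (348, 2.77%), and in H3K27ac lists of unstimulated BMDM, a mark of active promoters and enhancers (5 and 6), 0 of 10980 (416, 3.79%). Usp18 was marked in 0 of 12 libraries of stimulated BMDM and in 3 of 6 diabetic and 3 of 6 control libraries of HSC (-0.19 ± 0.21, limma adjusted p = 0.998), and its H3K27ac stood at ranks 9320 to 12984 in the diabetic (5 of 5 marked) and from 12770 downwards in the control libraries (5 of 6 marked; -0.47 ± 0.24, limma adjusted p = 0.999). Of the 10 genes of lowest p towards diabetes 8 of 9 tested had the same direction in stimulated BMDM, 2 of 10 in HSC and 3 of 10 for H3K27ac, where 7 of the 10 are the copies on chromosome 9 that share 1 interval. The 8 in stimulated BMDM were these copies and Gm21738, while Rgs12 had the opposite sign (1.03 ± 0.64) and Usp18 could not be tested. In HSC 8 of the 10 had an unadjusted p under 0.05 in the opposite direction, the copies (Gm10720 at 2.68 ± 1.13) and Gm21738 (2.71 ± 0.99). Of the 10 towards control, the same direction was seen for 3 of 10 in stimulated BMDM, 3 of 9 in HSC and 7 of 9 for H3K27ac. Fos was at -1.61 ± 1.02 in stimulated BMDM and at 1.10 ± 0.59 for H3K27ac.

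The same rank comparison was made between cell types, added after these values were seen. Between 6 control BMDM and 6 control HSC libraries it called 0 of 12736 genes (limma, lowest adjusted p = 0.0725). It left 2996 of these genes at an unadjusted limma p under 0.05, against 438 of 12357 between diabetic and control BMDM. Nor did it call any gene between stimulated and unstimulated diabetic BMDM (0 of 12228, lowest adjusted p = 0.831), and the 50 genes of lowest p each way, taken as an axis, did not separate the labels in the controls: the mean log2 rank of genes nearer the top without stimulus minus that of genes nearer the top with stimulus ran from -0.86 to 0.70 in the 6 stimulated and from -1.07 to -0.0053 in the 6 unstimulated control libraries. The LPS and interferon-gamma induced genes were marked for 8 to 10 of 29 in the diabetic and 9 to 13 of 29 in the unstimulated control libraries. The count was 13 in control replicate 1, 11 in control replicate 2 and 9 in each of control replicates 3 to 6.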

How the data were processed

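H3K4me3 chromatin immunoprecipitation with sequencing gave 1 narrowPeak list per library, each called against an input library. The reads were trimmed, aligned to GRCm38 (mm10) and called by the authors; the submitters' processing notes name Trim Galore 0.3.3, cutadapt 1.8, FastQC 0.11.3, Bowtie2 2.2.6, Picard 2.18.14 and 2.19.2, bedtools 2.19.1 and MACS2 2.2.7.1. The deposited lists hold, for each interval called per library, the -log10 p and -log10 q of the caller and a fold enrichment over local background, a ratio. They hold no read counts and no depth, so no counting interval can be given, and the number of libraries limits the precision. Intervals were ranked by -log10 p, which grows with depth, and lists were cut to 20000 intervals so that all had equal length.

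Start sites were those of protein-coding genes in GENCODE M21 (93513 sites, 21938 genes; no interval lay beyond a chromosome end of GRCm38). The background rate was solved from the -log10 p and fold of up to 6000 weak intervals per list, and the most frequent value was kept. Log2 ranks (genes marked in at least 6 libraries) and log2 promoter widths centred on each library's median (genes marked in at least 3 libraries of each group) were compared with limma 3.58.1 (R 4.3.3, trend and robust moderation, diabetic against control, no covariate) with Benjamini-Hochberg adjustment over all genes tested and a threshold of 0.05. Rank units say nothing of absolute signal. Occupancy was tested by Fisher's exact test, and the 5 library-level measures by exact two-sided permutation of the 11 libraries. Python 3.11.15 (scipy 1.17.1, pandas 2.3.3, numpy 2.4.6) was used for the rest, and both fits were tested on simulated data.

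Named genes were the 10 with the lowest median rank and the 10 widest, the 10 of lowest rank p and the 5 of lowest width p in each direction, 10 genes named in the study, and from each gene list the member of lowest rank p in each direction; genes named for any other reason were chosen after their values were seen. A few genes that this rule takes are not reported here. The members, gene lists and tests were chosen with earlier results of these data known. Replicate numbers were not treated as pairs in the main fits. The correlation of deviations of libraries of the same number ran from -0.09 to 0.08. With ranks that correlate weakly between libraries, this cannot settle whether libraries of the same number were prepared together, and the labels do not say. The alternatives changed the list length, the ranking column, the window, the overlap, the covariates, the moderation and the libraries used. Leaving out control replicates 3, 5 and 6, and uncentred widths with the background rate as a covariate, were added after the data were seen.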

Additional observations from a re-analysis of the deposited data

Results flagged for a closer look

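Of 110 sets of 5 or 6 log2 ranks (named genes by group), 10 held a library whose gap to the nearest of the others, as a share of the range of the group on the log2 scale, was above Dixon's critical value; chance flags about 1 in 20 sets. In the diabetic group these were diabetic replicate 6 at the interval shared by Trpm8 and Hjurp (rank 18 against 4 to 6; 0.730 for each gene), at Lrrc2 (0.788) and at Ednrb (0.941), diabetic replicate 2 at Sfi1 (0.768) and at Ctcf (0.833), and diabetic replicate 4 at Hk1 (rank 378 against 3099 to 7018; 0.720) and at Runx1 (rank 146 against 3171 to 5480; 0.849). In the control group they were control replicate 6 at Cdk6 (0.627) and control replicate 3 at Usp18, where it is the only control library with an interval and the value is 1 by construction. For Lrrc2, Ednrb and Usp18 the other values are mostly tied because the gene had no interval among the 20000.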

How the results depend on the processing

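Library-level differences kept their direction for width, broad promoters and background rate under all alternatives run, but not their side of the threshold. Leaving out 1 library at a time, the log2 difference in median width of marked promoters ran from -0.28 to -0.20, that in the percent of marked promoters wider than 4000 bp from -1.53 to -0.93 percentage points and the background rate from -1.10 to -0.84, and the adjusted exact permutation p missed the threshold without any 1 diabetic library. Without control replicates 5 and 6 the 3 values were -0.20, -1.09 and -0.71, and without control replicates 3, 5 and 6 they were -0.13, -0.43 and -0.49, all past the threshold no longer. At a -log10 q of 10 or more, broad promoters differed by -2.80 points without passing it. The percent of genes with a promoter peak differed by -4.11 points in lists as deposited and by -4.04 with an overlap of 500 bp, both past the threshold, and by 1.87, reversed, with ranking by fold. The percent of peaks over a promoter reversed to 0.298 with 40000 intervals, 0.450 with lists cut to the shortest, 6.12 as deposited, 13.8 at the q limit and 2.56 ranked by fold, and was -4.67 with the 500 bp overlap.

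Genes held by 1 group only numbered 2 with 10000 intervals, 1 with 40000, 6 as deposited, 11 at the q limit, 1 ranked by fold, 6 with the 500 bp overlap, 4 without control replicates 5 and 6, 17 without control replicates 3, 5 and 6, and 0 to 6 with 1 library left out. The rank comparison called 1 gene (Nek4) with the 500 bp overlap and 0 under all other settings. The width comparison called 3 genes cut to the shortest list, 14 at the q limit, 1 ranked by fold, 1 with the 2000 bp window, 4 with the 500 bp overlap, 7 not centred and 0 to 14 with 1 library left out, all narrower in diabetes. With the replicate number as a block, 0 genes were called by rank (473 at an unadjusted p under 0.05) and 0 by width (712), and no other call changed.

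None of the log2 rank differences that changed sign was past the threshold. With the background rate as a covariate these were Runx1 (-0.056), Spi1 (-0.46), Dpy30 (0.19), Cx3cl1 (-0.23), Socs2 (0.19), Ptgs2 (-0.0905), Pgls (0.23), Igf1 (0.10), Cyba (0.82), Mafk (0.22), Klf13 (0.16) and C1qc (-0.31). Ranked by fold they were Runx1 (-0.76), Ctcf (0.24) and Cx3cl1 (-0.95). With the replicate block Runx1 was -0.23, and without control replicates 5 and 6 C1qa was 0.079. With 1 library left out Runx1 ran from -0.23 to 1.13, Ctcf from -0.28 to 0.10, Cx3cl1 from -0.13 to 0.25, Gclc from -0.085 to 1.01 and C1qa from -0.33 to 0.039. Causes were not tested.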
